A study of Mus musculus with 25 samples.

Results

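The comparison described here asks whether the small molecule VCD, added to culture media, changed the RNA of mouse morulae differently from that of 2-cell embryos. It takes the VCD effect in morulae (VCD minus PBS) minus the VCD effect in 2-cell embryos, gene by gene, and this difference of differences is called the interaction below. It uses 16 of the 25 Smart-seq2 libraries of the series, all from C57BL/6 embryos made by in vitro fertilization, and 14144 of the 34228 genes in the embryo table, those that reached 1 FPKM in 4 libraries or more. FPKM sets the fragments of a gene against its transcript length and the library size. The groups were morulae with VCD, morulae with PBS (a buffered salt solution), 2-cell embryos with VCD and 2-cell embryos with PBS, with 4 libraries each. In all of them oocytes had matured in M16 medium for 16 h, fertilization lasted 6 h and embryos grew in G1 medium, with embryos nearing the morula stage moved to G2 medium after 72 h. The labels place the molecule in these media without saying which embryos met it in which medium. They give no full name or dose of VCD, no number of embryos per library and no word on separate animals or cultures, so the spread behind each p-value may be technical.

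The 2-cell embryo of the mouse still carries much RNA stored in the egg. It goes through the main burst of activation of its own genome, with short-lived gene families such as Zscan4. By the morula stage most stored RNA is gone, ribosomes are made anew, cells compact and polarize, and the programmes of trophectoderm and inner cell mass begin. Many genes are transcribed mainly at 1 of these stages, so levels at both are given beside each interaction.

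The 4 groups carried the RNA of their labelled stages. Zscan4d, a marker of genome activation at the 2-cell stage, had 0.388 ± 0.367 FPKM in VCD and 0.747 ± 0.879 FPKM in PBS morulae (SD, n = 4 each), against 285 ± 73.3 in VCD and 295 ± 15.2 in PBS 2-cell embryos. Nanog, a pluripotency factor, had 20.4 ± 6.29 and 23.1 ± 6.37 FPKM in VCD and PBS morulae against 0.138 ± 0.211 and 0.139 ± 0.124 in VCD and PBS 2-cell embryos. The size of 1 read in the FPKM values implied 15304093 to 17266923 reads in VCD morulae, 17230875 to 20998296 in PBS morulae, 15075832 to 20787456 in VCD 2-cell embryos and 15705351 to 18661495 in PBS 2-cell embryos. The VCD effect on depth (VCD minus PBS), lower in morulae than in 2-cell embryos, had the smallest p of a difference between stages among 7 library measures (exact two-sided permutation p = 0.0306 over 4900 regroupings, adjusted p = 0.214), and its part in the results was not tested. The remaining measures, among them genes at 1 FPKM or more, the share of mitochondrial genes and the sums of sex-linked and of cumulus markers, had adjusted p of 0.310 or more. FPKM corrects for library size, but not for the loss of rare RNAs at lower depth.

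No gene passed the test of the interaction over all 14144 genes (0%, limma with Benjamini-Hochberg adjustment, smallest adjusted p = 0.176). An unadjusted p below 0.05 was found for 502 genes (3.55%), of which 303 had the higher VCD effect in morulae and 199 the lower. The same libraries taken as recovered reads with voom also gave no call, with 600 genes at an unadjusted p below 0.05. In the same model the VCD effect in morulae passed for 1 gene, the small nuclear RNA gene Gm25332 (0.00707%), with 662 genes at an unadjusted p below 0.05, and the effect in 2-cell embryos passed for none (0%), with 440. The median interaction was -0.01 on the log2(FPKM + 1) scale, the scale of all differences below, which understates the changes of genes of low level.

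The libraries limited what could be seen. Among the 8457 genes with a mean of 5 FPKM or more in at least 1 group, the 95% interval of the interaction lay within a 2-fold change in either direction for 6310 (74.6%) and within a 4-fold change for 98.0%. The median standard error was 0.283. Between libraries of a group the median SD of log2 values was 0.311 in VCD morulae, 0.261 in PBS morulae, 0.242 in VCD and 0.183 in PBS 2-cell embryos, and the fit shares 1 spread over the 4 groups. In bulk samples such as these, fewer cells of a type and less RNA per cell cannot be told apart.

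The largest differences between the stages belonged to short RNAs without a protein product. Small nuclear RNAs are short RNAs of the nucleus, best known as parts of the spliceosome, and mammalian genomes hold many altered copies of their genes. The sequences of Gm25332 and Gm23504, both annotated as small nuclear RNA genes, are shown because they had the most positive and the most negative interaction of all genes. Gm25332 is annotated on the plus strand at chrX:92882451-92882555, with a transcript of 105 bases. Gm23504, of 95 bases, lies on the minus strand at chr1:87415255-87415349 inside Gigyf2, a gene of the plus strand, and was chosen after its values were seen. The transcripts are from GENCODE M21 on GRCm38, with no motif marked.
Gm25332: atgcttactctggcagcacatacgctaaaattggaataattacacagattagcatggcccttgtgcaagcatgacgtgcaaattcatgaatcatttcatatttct
Gm23504: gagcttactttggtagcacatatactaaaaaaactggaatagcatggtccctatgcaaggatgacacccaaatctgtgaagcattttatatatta

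Gm25332 had 4.41, 3.54, 4.98 and 4.24 FPKM in VCD morulae and was at 0 in all 4 PBS morulae. It had 15.2, 6.87, 3.54 and 2.15 FPKM in VCD 2-cell embryos and 7.28, 6.63, 9.98 and 6.78 FPKM in PBS 2-cell embryos. The morula groups did not overlap, while VCD 2-cell embryos spread to both sides of the PBS ones. The interaction was 2.79 ± 0.479 (SE; limma adjusted p = 0.176) and the VCD effect in morulae 2.397 ± 0.339 (adjusted p = 0.0349). With 1 library left out at a time, that effect passed in 8 of 16 fits. It did not pass after quantile normalization, with a common median or with no filter on low values. These values rest on few reads, 29 in all VCD morulae and 0 in all PBS morulae, which with 3 reads over the group as the floor makes the level at least 11.3-fold higher with VCD. The exact binomial 95% interval of the ratio, for counting error only, begins at 8.62. In 2-cell embryos 50 reads with VCD stood against 54 with PBS. The fitted interaction depends on the pseudocount, and with 0.1 in place of 1 it was 5.94 (adjusted p = 0.000348).

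Gm23504 went the other way on as few reads. It was at 0 FPKM in VCD morulae 1, 2 and 4 and had 0.688 FPKM in the third, against 1.003, 4.89, 5.58 and 5.76 FPKM in PBS morulae. In 2-cell embryos it had 0, 0.506, 0.559 and 5.34 FPKM with VCD and 0, 0, 0 and 0.624 FPKM with PBS. The morula groups did not overlap, and a single VCD 2-cell library held most of its stage's signal. With 1 read in VCD and 30 in PBS morulae the ratio per depth was 0.0390 (95% exact binomial interval 0.000955 to 0.234, for counting error only). The interaction was -2.87 ± 0.670 and did not pass (adjusted p = 0.571). Of the 65 small nuclear RNA genes tested, a class picked after these values were seen, 34 had a positive and 31 a negative interaction, and 13 (20.0%) had an unadjusted p below 0.05. Among the 353 tested genes under 200 bases this share was 11.3%, against 3.55% of all genes. Such short genes yield few fragments, and the part of counting noise in these shares was not tested.

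Gm13273 had the most negative interaction among the genes named by rule. It is annotated as a pseudogene on the minus strand at chr4:88696191-88696698, in the cluster of type I interferon genes. These genes encode the alarm signals of viral infection. Its transcript of 159 bases is shown because its groups overlapped at neither stage, with no motif marked.
Gm13273: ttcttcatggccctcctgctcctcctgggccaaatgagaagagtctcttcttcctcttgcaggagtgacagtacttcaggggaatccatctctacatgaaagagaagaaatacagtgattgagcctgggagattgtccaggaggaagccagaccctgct

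Over 127 aligned bases 90 (70.9%) were the same as in Ifnab, the interferon gene 4832 bases away. Klhl9, a neighbour that is no interferon gene, had 71.6% over 67 bases, so the percentage alone shows no kinship. Ifnab itself reached at most 0.0506 FPKM in any embryo library, Ifna2 0.765 and Ifna16 0.244, and none of these passed the filter. Gm13273 had 11.7, 6.23, 11.9 and 2.399 FPKM in VCD morulae and 25.8, 37.6, 24.3 and 28.6 FPKM in PBS morulae. In 2-cell embryos the order was turned round, with 5.01, 6.05, 3.34 and 3.55 FPKM with VCD and 2.80, 1.35, 1.94 and 1.86 FPKM with PBS. The groups overlapped at neither stage, yet the interaction of -2.77 ± 0.469 did not pass (limma adjusted p = 0.176). VCD morula 4 had the lowest value, and without it the interaction was -2.36 with the smaller adjusted p of 0.0480. It rests on 83 reads in VCD and 345 in PBS morulae, and on 52 in VCD and 21 in PBS 2-cell embryos.

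Rnu73b is a small nucleolar RNA, a class that guides the chemical marking of ribosomal RNA, and lies inside the ribosomal protein gene Rps3a1 (chr3:86140618-86140688, minus strand). It had 3.26 and 2.61 FPKM in the first pair of VCD morulae and 0 in the other pair, and 0.671, 1.64, 0 and 0 FPKM in PBS morulae. The 2-cell groups did not overlap, with 0, 0, 0.748 and 0 FPKM with VCD and 3.59, 3.02, 6.08 and 2.505 FPKM with PBS. That is 1 read against 18, and the interaction of 2.46 ± 0.639 did not pass (adjusted p = 0.707).

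**Figure D1:**
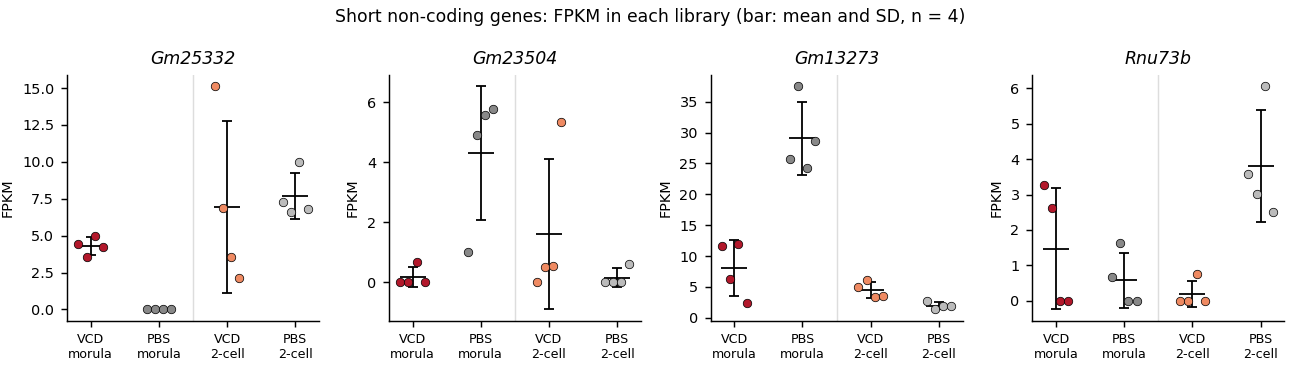
FPKM (vertical axes, linear) of 4 short genes in each library of VCD and PBS morulae and VCD and PBS 2-cell embryos, with each group's mean and SD (n = 4). Gm25332 is at 0 in all PBS morulae, Gm23504 and Gm13273 are highest in PBS morulae, and Rnu73b is highest in PBS 2-cell embryos.

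Among genes of 5 FPKM or more in at least 1 group, the 20 of smallest p had an unadjusted p of 0.00154 or less. They were 13 protein-coding genes and 7 others, and 17 had a positive interaction. All 17 had a positive VCD effect in morulae beside a negative one in 2-cell embryos, and 19 of the 20 had the larger effect in morulae. Choosing genes by a difference of 2 effects favours effects of opposite sign, so these counts describe the genes and support nothing. In 18 of them VCD and PBS morulae did not overlap, and in 7 the 2-cell groups did not. Of all 14144 genes, 143 had VCD libraries wholly above PBS in morulae and 107 wholly below. In 2-cell embryos these were 169 and 135 genes. Over all genes, 5 had VCD libraries wholly above PBS in morulae and wholly below in 2-cell embryos (0.0354%). These were Thap11, Gclm, Khdc3, Rac1 and Ildr1, while Gm13273 and Mmgt2 showed the reverse (0.0141%). None of the 7 passed the interaction test. The order rests on few reads for Khdc3 in 2-cell embryos, at 2 reads in the highest VCD and in the lowest PBS library, and for Ildr1 in morulae, at 10 reads in the lowest VCD and 12 in the highest PBS library.

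**Figure D2:**
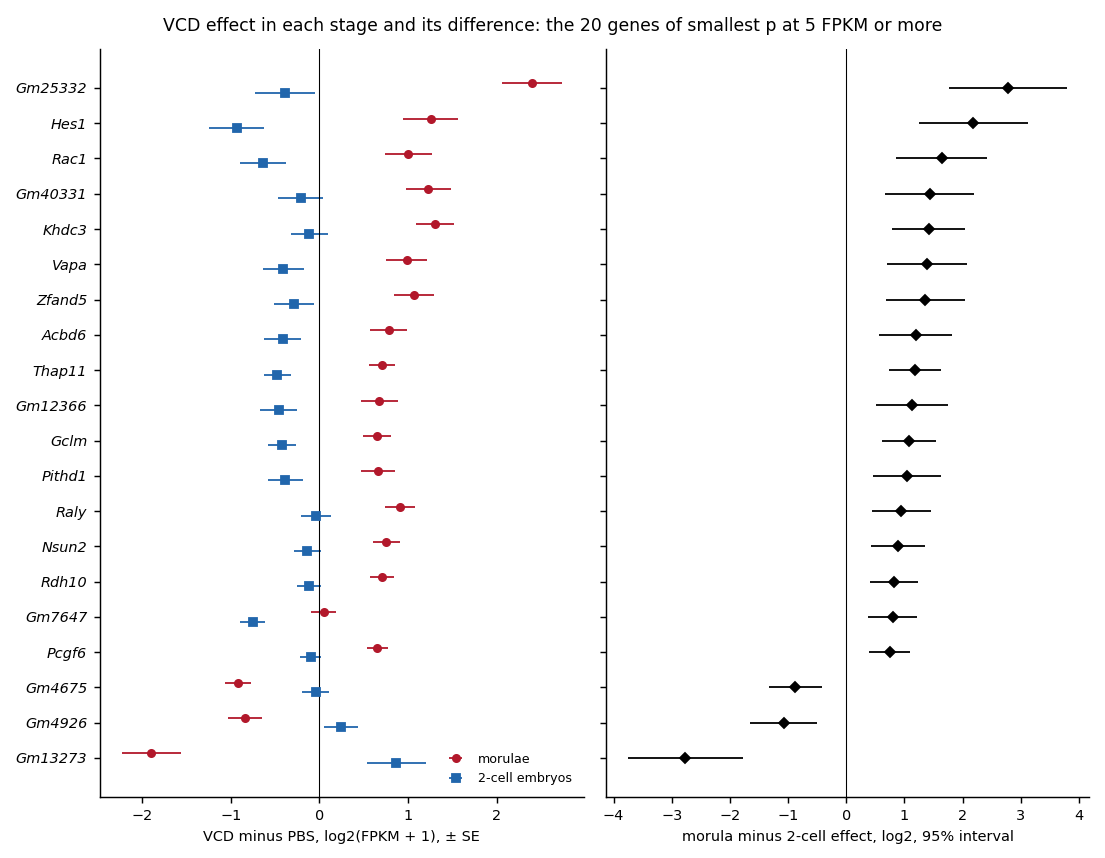
VCD minus PBS on the log2(FPKM + 1) scale in morulae (circles) and 2-cell embryos (squares) with standard errors on the left, and their difference with its 95% interval on the right, for the 20 genes of smallest p. Intervals are unadjusted, and 17 genes lie above 0 and 3 below.

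Among the protein-coding genes Thap11 had the smallest p. It encodes a zinc finger factor that embryonic stem cells need for self-renewal. It had 20.3, 25.7, 21.9 and 15.9 FPKM in VCD morulae and 11.1, 13.7, 12.96 and 11.6 FPKM in PBS morulae. It had 42.3, 43.7, 37.1 and 50.95 FPKM in VCD 2-cell embryos and 59.9, 65.4, 63.9 and 53.5 FPKM in PBS 2-cell embryos. Thap11 was lower in morulae than in 2-cell embryos in every library, and within each stage the VCD and PBS libraries did not overlap. The interaction was 1.18 ± 0.212 (95% interval 0.73 to 1.63, limma adjusted p = 0.188). Over the alternatives the adjusted p ran from 0.0561 to 0.557.

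Hes1, a repressor that answers Notch and other signals, had the largest interaction of a protein-coding gene in this set. In VCD morulae it had 100.4, 76.5, 99.4 and 60.04 FPKM and in PBS morulae 50.99, 30.2, 40.5 and 20.97 FPKM. In VCD 2-cell embryos it had 3.78, 7.44, 7.77 and 7.01 FPKM and in PBS 2-cell embryos 7.06, 21.045, 14.9 and 12.3 FPKM. Its mean was higher in morulae, at 84.1 against 6.50 FPKM with VCD and 35.7 against 13.8 FPKM with PBS. With PBS the stages overlapped, as 2-cell replicate 2 (21.045 FPKM) lay above morula 4 (20.97 FPKM). The VCD morulae lay above all PBS morulae, and the 2-cell groups overlapped. The interaction was 2.19 ± 0.440 and did not pass (adjusted p = 0.429). With a block for replicate number within each stage it passed (limma adjusted p = 0.0172), but the labels do not say that numbers mark pairs. Of the 25 genes of the Notch list tested, 11 had a positive interaction and Hes1 alone had an unadjusted p below 0.05 (4% against 3.55% of all genes).

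Pcgf6 encodes a subunit of a Polycomb complex that silences germ cell genes. It had 79.1, 71.1, 72.8 and 73.4 FPKM in VCD morulae, against 51.8, 47.9, 48.9 and 39.2 FPKM in PBS morulae. Its 2-cell groups overlapped at 123 ± 10.9 FPKM with VCD and 131 ± 11.7 FPKM with PBS. The VCD morulae lay close together above the PBS ones, with an interaction of 0.75 ± 0.168 (adjusted p = 0.542).

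Gclm encodes the modifier subunit of the enzyme that begins glutathione synthesis. It had 11.8, 17.4, 13.2 and 10.2 FPKM in VCD morulae and 9.34, 7.57, 7.96 and 6.85 FPKM in PBS morulae. The 2-cell values were 2.06, 1.90, 1.85 and 2.75 FPKM with VCD and 3.35, 2.85, 3.24 and 3.33 FPKM with PBS. The groups overlapped at neither stage and their order was opposite, with an interaction of 1.07 ± 0.221 (limma adjusted p = 0.429).

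Of the 36 glutathione and antioxidant genes tested, 21 had a positive interaction, and Gclm, Gsr, Txnip and Gpx6 had an unadjusted p below 0.05, all higher (11.1% against 3.55% of all genes). None passed, and the list's median was 0.08, against -0.01 over all genes. Gsr, the enzyme that restores oxidized glutathione, had 29.8, 61.0, 34.0 and 59.4 FPKM in VCD morulae and 30.3, 33.0, 36.5 and 23.6 FPKM in PBS morulae. Its 2-cell groups held 2.67 ± 0.702 FPKM with VCD and 3.41 ± 0.795 FPKM with PBS, and the groups overlapped at both stages. Txnip, an inhibitor of thioredoxin, had 3.52 ± 1.86 FPKM in VCD and 1.01 ± 0.515 FPKM in PBS morulae, against 14.6 ± 1.69 and 13.2 ± 0.889 FPKM in VCD and PBS 2-cell embryos. Gpx6, a glutathione peroxidase, was near 0 in morulae, so its interaction of 0.55 is that of 2-cell embryos alone, with 8.83 ± 0.724 FPKM with VCD and 13.8 ± 1.41 FPKM with PBS. Hmox1, the heme oxygenase known to respond to oxidative stress, had the largest interaction of the list, 1.59 ± 0.810. Its morulae ranged from 1.92 to 22.2 FPKM with VCD and from 0.331 to 7.40 FPKM with PBS, and its unadjusted p was 0.0670. Sod2, the superoxide dismutase of mitochondria, had 81.1 ± 20.5 and 74.9 ± 17.1 FPKM in VCD and PBS morulae, 30.9 ± 5.08 and 33.8 ± 1.33 FPKM in VCD and PBS 2-cell embryos, and an interaction of 0.24 (95% interval -0.37 to 0.84).

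Khdc3 (also known as Filia) is a part of the subcortical maternal complex of eggs and early embryos. It had 22.1, 39.6, 31.8 and 28.6 FPKM in VCD morulae and 12.5, 16.8, 12.1 and 6.73 FPKM in PBS morulae. In 2-cell embryos it was near 0, at most 0.0550 FPKM with VCD and 0.235 FPKM with PBS. The interaction of 1.42 ± 0.299 (adjusted p = 0.429) was thus mainly the morula effect of 1.30 ± 0.211 (adjusted p = 0.0525). Of its stretches of 50 bases, 34.1% also occur in Gm20509, so its counts are uncertain. Of 45 maternal effect genes tested, 24 had a positive interaction, and Khdc3 and Zar1 (higher) and Pms2 (lower) had an unadjusted p below 0.05 (6.67% against 3.55% of all genes). Zar1, a regulator of stored RNA, had at most 0.528 FPKM in VCD and 0.352 FPKM in PBS morulae, and 9.67 ± 2.52 and 14.6 ± 3.93 FPKM in VCD and PBS 2-cell embryos. For Dppa3, which protects maternal DNA methylation, the interval was wide, with an interaction of 0.16 (-0.51 to 0.83) at 324 ± 93.3 and 256 ± 27.3 FPKM in VCD and PBS morulae and 320 ± 114.6 and 282 ± 47.0 FPKM in VCD and PBS 2-cell embryos.

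For Rac1, Vapa, Acbd6 and Lamp1, picked from the genes named (Lamp1 for the smallest p in its list), PBS morula 4 was the lowest morula library. The same held for other named genes, among them Hes1, Pcgf6, Gclm, Khdc3, Zfand5 and Rdh10, but not for Thap11, Nsun2, Raly and Pithd1. With 1 library left out at a time, the interaction was weakest without PBS morula 4 in 8 of the 20 genes of smallest p. Rac1, a small GTPase that drives actin assembly, had 21.7, 37.3, 22.7 and 23.1 FPKM in VCD morulae and 18.2, 12.5, 16.3 and 5.85 FPKM in PBS morulae. It had 35.4, 35.4, 36.1 and 44.9 FPKM in VCD 2-cell embryos and 56.96, 72.0, 57.7 and 52.5 FPKM in PBS 2-cell embryos. The groups overlapped at neither stage, and the interaction was 1.65 ± 0.369 (limma adjusted p = 0.542), or 1.33 without PBS morula 4. Of its 50-base stretches 50.3% also lie in Daglb, annotated on the opposite strand, and the counting is not stated to use strand.

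Vapa, which ties the endoplasmic reticulum to other membranes, had 354, 354, 366 and 375 FPKM in VCD morulae and 232, 216, 228 and 96.9 FPKM in PBS morulae. Its 2-cell groups overlapped, at 63.3 ± 14.2 FPKM with VCD and 83.5 ± 10.9 FPKM with PBS. The interaction of 1.395 ± 0.325 (adjusted p = 0.571) was 1.09 without PBS morula 4. Acbd6, a carrier of acyl-CoA, had 8.48 ± 0.987 and 4.68 ± 1.62 FPKM in VCD and PBS morulae, 2.31 ± 0.516 and 3.43 ± 0.898 FPKM in VCD and PBS 2-cell embryos, and an interaction of 1.19. Lamp1, a main protein of the lysosome membrane, had 281, 495, 301 and 409 FPKM in VCD morulae, above all PBS morulae at 213, 225, 258 and 189 FPKM. In 2-cell embryos it was far lower at 11.03 ± 1.68 FPKM with VCD and 12.2 ± 0.673 FPKM with PBS, with an interaction of 0.86 ± 0.244 (adjusted p = 0.890). Of 37 autophagy and lysosome genes tested, 16 had a positive interaction, with Lamp1 and Atg3, an enzyme of autophagosome formation, at an unadjusted p below 0.05 (5.41% against 3.55%) and a median of -0.04. Among 39 polarity and junction genes, 19 had a positive and 20 a negative interaction. Rac1 and Jup, a plaque protein of cell junctions, were at an unadjusted p below 0.05 (5.13% against 3.55% of all genes).

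Zfand5, a zinc finger protein that aids protein breakdown by the proteasome, had 36.9, 21.1, 32.7 and 21.4 FPKM in VCD morulae and 17.4, 13.02, 11.99 and 8.73 FPKM in PBS morulae. Its 2-cell groups overlapped at 19.8 ± 4.57 FPKM with VCD and 24.1 ± 3.27 FPKM with PBS, and the interaction was 1.36 ± 0.322 (adjusted p = 0.590). The proteasome genes themselves had 20 of 31 positive. The pair with an unadjusted p below 0.05, Psmd14 and Psmd7, both of the regulatory particle, were lower (6.45% against 3.55% of all genes). Psmd14 had 312 ± 23.5 and 383 ± 24.0 FPKM in VCD and PBS morulae, which did not overlap, and 10.9 ± 1.61 and 9.85 ± 0.878 FPKM in VCD and PBS 2-cell embryos.

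Genes of RNA metabolism were among the 20 as well. Nsun2, an enzyme that methylates cytosines of transfer and other RNAs, had 67.8, 89.7, 75.3 and 109.5 FPKM in VCD morulae, above the PBS morulae at 46.6, 54.1, 50.6 and 46.6 FPKM. It had 7.09 ± 0.694 FPKM with VCD and 7.92 ± 1.33 FPKM with PBS in 2-cell embryos, and an interaction of 0.89 ± 0.220 (adjusted p = 0.615). Raly, a nuclear RNA-binding protein, had 8.20 ± 1.13 and 3.92 ± 0.798 FPKM in VCD and PBS morulae and 8.11 ± 0.929 and 8.47 ± 1.94 FPKM in VCD and PBS 2-cell embryos. Its VCD morulae were thus near the level of 2-cell embryos, and the PBS morulae below it, with an interaction of 0.95 ± 0.239 (adjusted p = 0.653). Rdh10, an enzyme of retinoic acid synthesis, had 9.48 ± 1.39 and 5.45 ± 1.005 FPKM in VCD and PBS morulae, 26.5 ± 1.72 and 28.9 ± 1.82 FPKM in VCD and PBS 2-cell embryos, and an interaction of 0.82 ± 0.198. Pithd1 had 49.7 ± 14.2 and 30.7 ± 6.93 FPKM in VCD and PBS morulae, and 19.6 ± 2.93 and 25.8 ± 1.69 FPKM in VCD and PBS 2-cell embryos. Its morulae overlapped and its 2-cell groups did not, with an interaction of 1.04 ± 0.275.

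**Figure D3:**
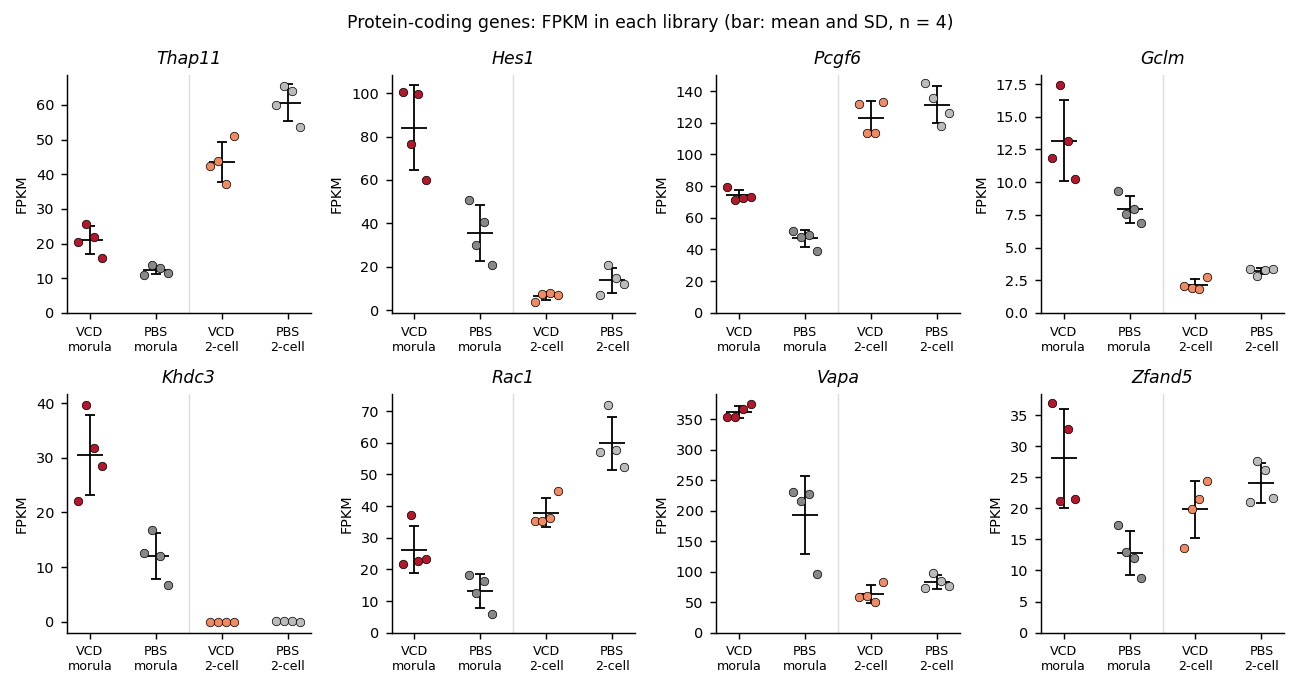
FPKM (vertical axes, linear) of 8 protein-coding genes in each library of VCD and PBS morulae and VCD and PBS 2-cell embryos, with each group's mean and SD (n = 4). VCD morulae lie above PBS morulae in all 8 panels, and VCD 2-cell embryos lie below PBS ones without overlap in Thap11, Gclm, Khdc3 and Rac1.

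Non-coding genes and pseudogenes made up the rest of the 20. Gm4675, a long non-coding RNA that overlaps Sox21 on the opposite strand, had 6.10, 6.88, 4.47 and 4.31 FPKM in VCD morulae and 12.6, 10.9, 12.4 and 8.54 FPKM in PBS morulae, and at most 0.130 and 0.227 FPKM in VCD and PBS 2-cell embryos. Its groups did not overlap in morulae, with an interaction of -0.88 ± 0.213 (adjusted p = 0.615) and a morula effect of -0.92 (adjusted p = 0.0525). Gm40331, another such RNA, had 3.73 ± 1.95 and 0.914 ± 0.210 FPKM in VCD and PBS morulae, and 19.8 ± 5.23 and 23.1 ± 6.10 FPKM in VCD and PBS 2-cell embryos, an interaction of 1.43 ± 0.359. Gm4926, also a long non-coding RNA, had 0.621 ± 0.435 and 1.83 ± 0.465 FPKM in VCD and PBS morulae, and 12.8 ± 1.87 and 10.6 ± 0.844 FPKM in VCD and PBS 2-cell embryos, an interaction of -1.08 ± 0.274. Gm7647 was seen almost only in 2-cell embryos, with 3.44 ± 0.488 FPKM with VCD and 6.55 ± 1.51 FPKM with PBS, and shared 96.3% of its stretches with other genes. Gm12366, a pseudogene that shares 76.3% of its stretches with others and most with Rps2, had 13.1 ± 2.49 and 8.09 ± 2.79 FPKM in VCD and PBS morulae, and 0.999 ± 0.251 and 1.75 ± 0.336 FPKM in VCD and PBS 2-cell embryos.

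The 13 proteins encoded by mitochondrial DNA are all subunits of the respiratory chain and its ATP synthase. Of the 12 of their genes tested, 12 had a positive interaction and 5 had an unadjusted p below 0.05 (41.7% against 3.55% of all genes), and none passed over all genes. The list's median was 0.43, made of 0.17 in morulae and -0.28 in 2-cell embryos. The alternatives run for lists were quantile normalization, a common median and 1 library left out at a time. Over them this median lay between 0.28 and 0.55. These RNAs are cut from long common transcripts, so the genes are not independent, and the pattern was known from earlier results of these data. Of their 50-base stretches, 98.8% of mt-Nd4l, 100% of mt-Co2 and 99.5% of mt-Atp6 also occur in other annotated genes, which makes their counts uncertain. The gene mt-Co3, with an interaction of 1.34 ± 0.413, was not examined for this.

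The subunit of complex I mt-Nd4l had 2.54, 5.83, 4.18 and 2.996 FPKM in VCD morulae and 1.76, 1.37, 1.96 and 1.29 FPKM in PBS morulae. The 2-cell values were 4.47, 1.94, 2.32 and 2.66 FPKM with VCD and 5.14, 5.59, 4.57 and 3.39 FPKM with PBS. The morula groups did not overlap and the 2-cell groups did, with an interaction of 1.46 ± 0.312 (adjusted p = 0.429). These values rest on few reads, 74 in VCD and 36 in PBS morulae, and 59 in VCD and 94 in PBS 2-cell embryos. The lowest VCD morula library held 13 reads and the highest PBS one 11. The ATP synthase gene mt-Atp6 had 193 ± 45.5 FPKM in VCD and 181 ± 45.2 FPKM in PBS morulae, which overlapped. Its 2-cell groups did not, with 209, 124, 176 and 169 FPKM with VCD and 317, 302, 286 and 265 FPKM with PBS, and the interaction was 0.89 ± 0.286 (adjusted p = 0.999). The abundant mt-Nd1 had an interaction of 0.25, with an interval of -0.30 to 0.80, and it makes up much of the mitochondrial RNA. The share of mitochondrial genes in all FPKM was 11.5% ± 1.20 and 10.9% ± 0.724 in VCD and PBS morulae, and 6.09% ± 1.23 and 6.94% ± 0.407 in VCD and PBS 2-cell embryos (difference of differences 1.47 percentage points, exact permutation p = 0.133, adjusted p = 0.310). The 48 nuclear genes of the respiratory chain had 21 positive, 27 negative, none at an unadjusted p below 0.05 and a median of -0.04.

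**Figure D4:**
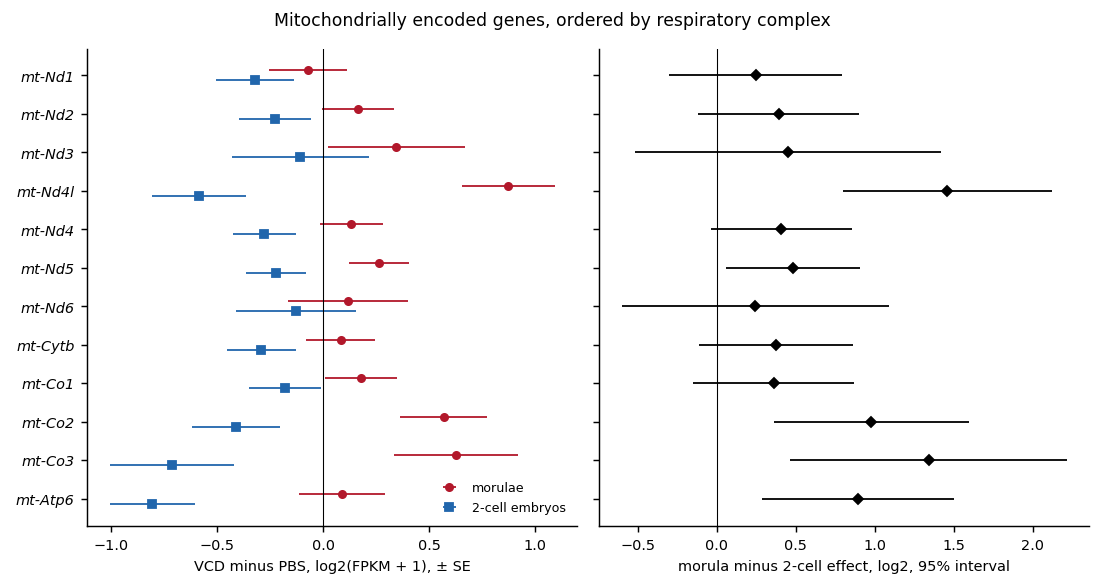
VCD minus PBS on the log2(FPKM + 1) scale in morulae (circles) and 2-cell embryos (squares) with standard errors on the left, and their difference with its unadjusted 95% interval on the right, for the 12 mitochondrially encoded genes tested. All 12 differences are above 0, and mt-Nd4l, mt-Co3, mt-Co2, mt-Atp6 and mt-Nd5 have intervals that leave out 0.

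Ribosomal protein genes, 76 tested, had 55 positive interactions and a median of 0.10, which became -0.04 without VCD morula 1 and 0.29 without VCD 2-cell replicate 4. Rps2 had 1562, 950, 1519 and 1091 FPKM in VCD morulae and 826, 784, 1068 and 446 FPKM in PBS morulae, and the groups overlapped. In 2-cell embryos it had 58.5 ± 20.3 FPKM with VCD and 76.9 ± 15.2 FPKM with PBS, and the interaction of 1.18 ± 0.384 had an adjusted p of 0.999. With Rpl23a it was the only one at an unadjusted p below 0.05 (2.63% against 3.55%), and 43.0% of its stretches also occur in other genes. Ribosome biogenesis genes had 12 positive and 33 negative interactions, beside 6779 positive of all 14144 genes, and a median of -0.13. Over the alternatives run for lists that median lay between -0.19 and -0.05. Utp18, of the complex that processes small-subunit ribosomal RNA, and Fbl, the methyltransferase fibrillarin, were higher at an unadjusted p below 0.05 and Nop16, a nucleolar protein, lower (6.67% against 3.55% of all genes). Utp18 had 45.8 ± 8.498 and 23.9 ± 9.33 FPKM in VCD and PBS morulae, and 7.59 ± 2.89 and 9.51 ± 0.442 FPKM in VCD and PBS 2-cell embryos, an interaction of 1.33 ± 0.381 (adjusted p = 0.890).

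Genes of the first wave of zygotic transcription were even, with 17 of 34 positive and none at an unadjusted p below 0.05, and Zscan4d had an interaction of -0.16 (95% interval -1.01 to 0.68). The egg coat and oocyte factor list had 12 of 26 positive and none at that level, with 0.35 (-0.32 to 1.02) for Gdf9, a growth factor of the oocyte.

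Of 30 pluripotency and inner cell mass genes, 17 had a positive interaction, and Spp1, a secreted matrix protein, was at an unadjusted p below 0.05 (3.33% against 3.55% of all genes). Spp1 had 0.0703, 0.451, 0.198 and 0.540 FPKM in VCD morulae and 1.71, 2.11, 4.63 and 2.79 FPKM in PBS morulae, without overlap. In 2-cell embryos it had 4.29 ± 3.09 FPKM with VCD and 5.14 ± 1.07 FPKM with PBS, which overlapped, and its interaction was -1.11 ± 0.467 (adjusted p = 0.999). The interval was -0.59 to 0.88 for Pou5f1 and -0.80 to 0.48 for Nanog, the core factors of pluripotency. Cdx2, which directs trophectoderm, had 3.99 ± 2.62 and 3.68 ± 1.70 FPKM in VCD and PBS morulae, and an interval of -0.92 to 0.95. The trophectoderm list had 18 of 26 positive with a median of 0.17, between 0.10 and 0.26 over the alternatives run for lists. It had 1 gene at an unadjusted p below 0.05, the lectin gene Lgals3 (3.85%). Its largest interaction, 0.84 ± 0.406, was that of the keratin gene Krt18. Dusp4, a phosphatase that damps signals of growth factors, had 11.03, 11.3, 10.3 and 12.5 FPKM in VCD morulae and 3.41, 8.35, 6.34 and 6.92 FPKM in PBS morulae, with 1.24 ± 0.284 and 1.57 ± 0.736 FPKM in VCD and PBS 2-cell embryos and an interaction of 0.98 ± 0.310. It was the only one of 18 primitive endoderm and FGF genes at that level (5.56%). The Hippo list had 7 of 20 positive and none at that level.

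Stress and damage genes were counted list by list. Among 36 p53 targets and apoptosis genes, 21 were positive. Only Phlda3, a p53 target that dampens Akt signalling, was at an unadjusted p below 0.05 (2.78% against 3.55% of all genes). It had 21.9, 44.7, 57.3 and 47.9 FPKM in VCD morulae and 20.9 ± 6.14 FPKM in PBS morulae, whose highest library overlapped the lowest of VCD, and at most 0.119 FPKM in 2-cell embryos. Cdkn1a, the cell cycle inhibitor and best-known p53 target, had 76.4 ± 15.3 and 62.0 ± 10.1 FPKM in VCD and PBS morulae, 5.37 ± 2.32 and 7.07 ± 2.47 FPKM in VCD and PBS 2-cell embryos, and an interval of -0.08 to 1.38. The lists of endoplasmic reticulum stress (15 of 27 positive), heat shock chaperones (11 of 25), DNA damage response (16 of 42, median -0.10), cell cycle (20 of 44), glycolysis (8 of 21), DNA and histone modification (28 of 53) and imprinted genes (5 of 15) had no gene at an unadjusted p below 0.05. The endoplasmic reticulum chaperone gene Hspa5 had an interaction of 0.01 (-0.58 to 0.60). Of 22 cholesterol synthesis genes, 12 were positive. Only Ebp, a sterol isomerase, was at an unadjusted p below 0.05 (4.55% against 3.55% of all genes).

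**Figure D5:**
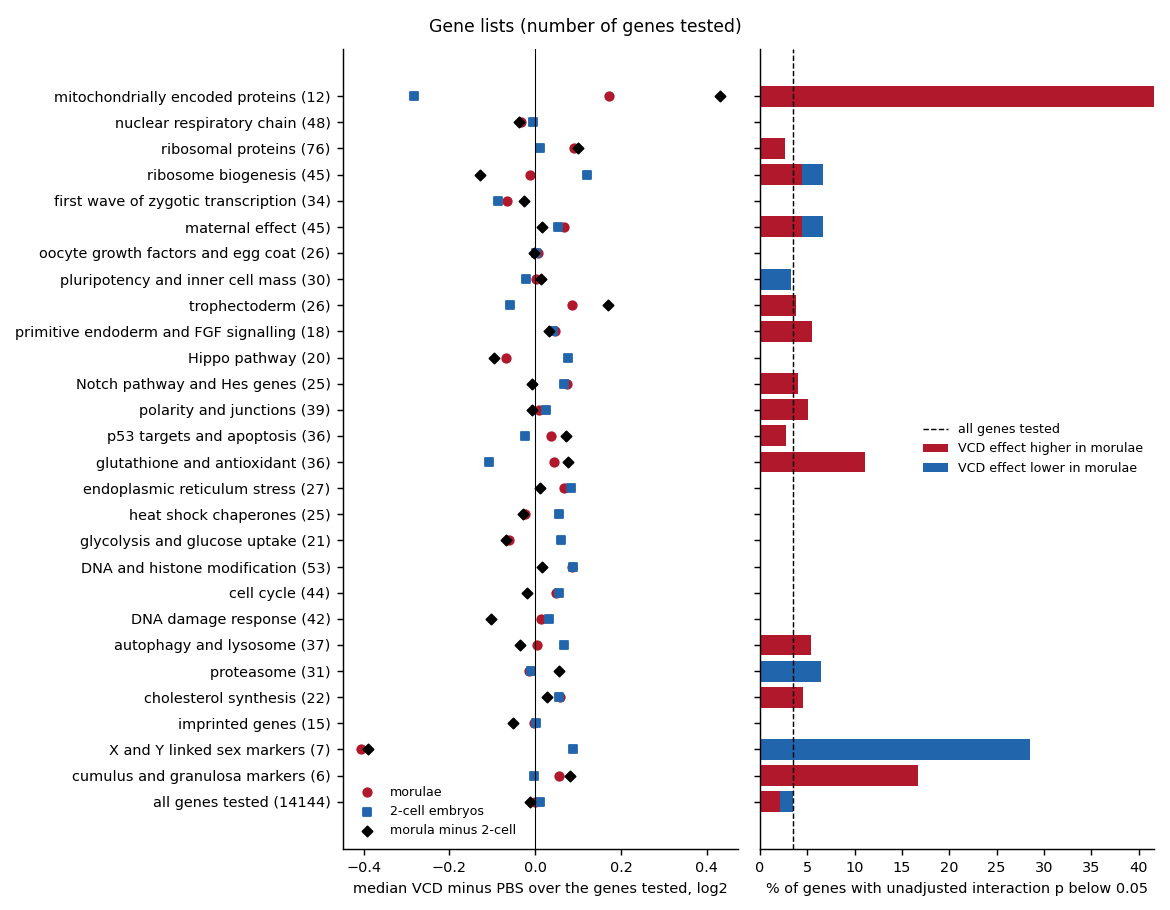
For each gene list with 5 or more genes tested (number in brackets), the median VCD minus PBS on the log2(FPKM + 1) scale in morulae, in 2-cell embryos and as their difference on the left, and the percentage of genes with an unadjusted interaction p below 0.05 on the right, higher and lower stacked. The mitochondrially encoded genes lie farthest from all genes, at a median of 0.43 and 41.7% against -0.01 and 3.55%.

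Genes were also grouped by the stage at which they were detected, with no test between the classes. Of 7394 genes detected in both stages 3.26% had an unadjusted p below 0.05, of 2532 detected in morulae alone 4.23%, of 3892 detected in 2-cell embryos alone 3.39%, and of 326 detected in neither 6.75%. Those detected in both stages were 147 higher and 94 lower, those in morulae alone 53 higher and 54 lower, those in 2-cell embryos alone 94 higher and 38 lower, and those in neither 9 higher and 13 lower. Detection here means a mean of 1 FPKM or more over the libraries of the stage, with VCD and PBS pooled.

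Sex-linked genes and markers of other cells were measured beside these results, and their part in them was not tested. Of 7 sex markers tested, 5 had a negative interaction, and the Y-linked genes Eif2s3y and Usp9y were at an unadjusted p below 0.05 (28.6% against 3.55% of all genes), with a list median of -0.39. Summed Y-linked genes had 3.92 to 13.3 FPKM in VCD morulae and 7.63 to 22.2 in PBS morulae, and 4.06 to 11.6 in VCD and 1.39 to 8.43 in PBS 2-cell embryos. Xist, the RNA of the inactive X, had 2.75 to 14.6 FPKM in VCD and 2.56 to 8.54 FPKM in PBS morulae, so every morula library held both Xist and Y-linked RNA. Cumulus and granulosa markers summed to 23.6 to 37.2 FPKM in VCD and 22.5 to 32.8 in PBS morulae, and to 11.1 to 13.04 in VCD and 8.84 to 15.5 in PBS 2-cell embryos. Of 23 such markers 6 were tested, 4 with a positive interaction. Areg, a growth factor also made by embryos, had 1.80 ± 0.971 and 0.543 ± 0.509 FPKM in VCD and PBS morulae. It was the only one of the 6 at an unadjusted p below 0.05 (16.7% against 3.55% of all genes). Sperm markers (3 tested, 0 positive) and blood markers (3 tested, 2 positive) had none at that level.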

How the data were processed

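Smart-seq2 libraries, made from full-length cDNA of mouse oocytes and embryos, were deposited by the authors as FPKM per gene, with no read counts. Reads passed through TopHat2 2.0.12 and Bowtie2 2.2.3, per the submitters' processing notes, which name a chicken build although the gene identifiers are those of mouse Ensembl. No source used here gives the counting tool, the annotation or the use of strand. The oocyte libraries were not used here.

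Column names gave each of the 16 embryo libraries its group. Genes that reached 1 FPKM in 4 libraries or more were kept, 1 FPKM was added, and log2 values were fitted with limma 3.58.1 in R 4.3.3 (4 group means, variance trend, Benjamini-Hochberg adjustment over 14144 genes, threshold 0.05). Of values below 200 reads, 90.6% to 91.5% per library came out as whole reads within 0.01, and these reads gave the depths and the voom alternative. As reads carry no molecular identifiers, intervals and floors on them cover counting error only. Symbols of 34065 of 34228 genes matched GENCODE M21 on GRCm38, from which lengths, 50-base stretches shared with other genes and sequences were taken, aligned with Biopython 1.88.

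Genes named were the 20 of smallest interaction p with a mean of 5 FPKM or more in some group, the gene of smallest p in each list with 5 or more genes tested, and a fixed panel. Others, among them Gm23504, Halr1 and the list members given as examples, were chosen after their values were seen. The members and the 29 lists were chosen with earlier results of these data known. Library measures were compared by exact permutation of VCD and PBS within stages.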

Additional observations from a re-analysis of the deposited data

Results flagged for a closer look

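In 23 of 272 groups of 4 libraries examined, 1 library stood apart from the other 3 by Dixon's criterion at the 95% level. No cause was tested. Chance alone meets the criterion in about 1 of 20 groups where values follow a normal distribution, which was not checked for FPKM. A group with 1 library above 0 and the rest at 0 always meets it, as with Gm7647, Gpx6, Rnu73b and Phlda3. The 23 groups can therefore not be set against that rate. In VCD morulae Rac1 was highest at 37.3 FPKM in 1 library against 21.7 to 23.1 in the others, Gm12366 at 16.8 against 11.7 to 12.1, Gipc1 at 28.6 against 5.46 to 7.32 and Hspa5 at 97.4 against 65.9 to 68.8. Pou5f1 was lowest at 24.96 FPKM against 31.2 to 31.6, and Gm7647 (0.141) and Gpx6 (0.102) were above 0 in 1 library.

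In PBS morulae Vapa was lowest at 96.9 FPKM in replicate 4 against 216 to 232 in the others. Areg was highest at 1.31 FPKM against 0.274 to 0.305, Snrpn at 73.0 against 47.4 to 50.3, Hspa4 at 120.3 against 85.1 to 88.1 and Zp3 at 43.1 against 25.7 to 28.03, and Gpx6 was above 0 in 1 library (0.224).

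In VCD 2-cell embryos Rac1 was highest at 44.9 FPKM against 35.4 to 36.1, Pithd1 at 24.0 against 17.6 to 18.6, Nanog at 0.451 against 0 to 0.0710 and Dppa3 at 491 against 252 to 280.4. Rnu73b was above 0 in 1 library (0.748). The share of ribosomal protein genes was highest at 0.552% against 0.392% to 0.418%, and the summed cumulus markers at 13.04 FPKM against 11.1 to 11.3. In PBS 2-cell embryos Lats1 was highest at 1.61 FPKM against 0.837 to 0.878 and Wee1 at 8.11 against 6.24 to 6.25, and Phlda3 was above 0 in 1 library (0.119).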

How the results depend on the processing

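Genes with a higher interaction passed in 1 case with a pseudocount of 0.1 (Gm25332), 1 with no filter on low values (4930573H18Rik) and 1 with the replicate block within stage (Hes1, adjusted p = 0.0172), and in 0 to 2 with 1 library left out at a time (Gm25332 and Halr1, adjusted p = 0.000679 and 0.0486, without VCD 2-cell replicate 1). Genes with a lower one passed in 1 case with no filter (Gm26415) and in 0 to 1 with 1 library left out (Gm13273 without VCD morula 4). The morula effect passed for 0 genes with no filter, 0 after quantile normalization, 0 with a common median, 0 with the replicate block, 2 with array weights, 2 with voom, and 0 to 10 with 1 library left out (10 without VCD morula 1). Gm25332 did not pass there without VCD morula 3, without any of PBS morulae 1 to 3, without VCD 2-cell replicate 2, or without any of PBS 2-cell replicates 1, 3 and 4. The 2-cell effect passed for 13 genes with no filter, 2 after quantile normalization, 13 with array weights, 1 with the replicate block, and 0 to 7 with 1 library left out. The cause of these changes was not tested.

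The labels do not say whether libraries of the same number form pairs. Same-numbered ones correlated at 0.30, -0.05, 0.03 and 0.35 in morulae and 0.15, -0.06, -0.03 and -0.14 in 2-cell embryos. Only numbers 1 and 4 in morulae and 1 in 2-cell embryos correlated best with their own number. Xist, picked after its values were seen, ran in the same order of numbers in both morula groups. It had 6.36, 14.6, 2.75 and 12.2 FPKM with VCD and 5.14, 8.54, 2.56 and 7.68 FPKM with PBS. Pairing was not tested further. The smallest adjusted p of the library measures, 0.214, ranged from 0.0257 (without VCD 2-cell replicate 1) to 0.457.

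Of the single-gene values under the alternatives, 1540 kept direction and side of the threshold, 4 newly passed and 22 turned sign, all in the 5 genes Nanog, Pou5f1, Zscan4d, Cdx2 and Hspa5, whose intervals held 0. With a pseudocount of 0.1 these were Nanog at 0.0095 and Cdx2 at -0.070, after quantile normalization Cdx2 at -0.015, and with voom Nanog at 0.32, Zscan4d at 0.023 and Cdx2 at -0.24. With 1 library left out the ranges were -0.28 to 0.30 for Cdx2, -0.16 to 0.14 for Hspa5, -0.029 to 0.35 for Pou5f1 and -0.39 to 0.14 for Zscan4d. Low depth limits genes of few reads, where 1 read shifts the value.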
